A study of Mus musculus with 6 samples.

Results

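A set of 40 genes of ribosome production and its control by Myc were followed in stem cells of the mouse intestine that were cultured with INT-777 or its solvent DMSO. The members are a list of genes by function: Myc with its relative Mycn and its partner Max, RNA polymerase I with its helpers, and the nucleolar factors that process, assemble and export ribosomes. This list and the further gene lists below were chosen with earlier results of these data known. All 40 were found by symbol among the 54838 gene IDs of the count files, and 39 passed the low-count filter as part of the 15998 genes tested. The exception was Wdr74, a factor of large subunit maturation (chromosome 19, 8735827 to 8740624). It had 0 read pairs in all DMSO libraries and 1, 2 and 1 in the INT-777 libraries of days 1, 2 and 3, so that no fold can be given. Whether this near-absence lies in the cells or in how read pairs were assigned to the gene was not tested.

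The compound INT-777, made from a bile acid, is an agonist of the bile acid receptor TGR5, the product of Gpbar1, and the experiment asked which genes respond to it in stem cells. On each of 3 days, cells with high green fluorescence were sorted from the pooled intestines of 4 mice of the strain B6.129P2-Lgr5tm1(cre/ERT2)Cle/J, whose Lgr5 locus drives the reporter. About 200000 sorted cells were set in Matrigel, 20000 to a drop of 10 µL, and INT-777 at 30 µM or DMSO was added 4 h later. The labels state no age. Both groups carried the same reporter allele and grew in a medium with the Notch ligand JAG-1 (1 µM) and CHIR99021 (3 µM), an inhibitor of GSK3 that turns on Wnt signalling. Treatment lasted 12 h by the sample labels and 16 h by the design text. There were 3 libraries per group, 1 of each group per day, and each library is named here by its day.

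A ribosome begins in the nucleolus, where RNA polymerase I transcribes a long precursor RNA from the ribosomal DNA. Small nucleolar ribonucleoproteins (snoRNPs, guide RNAs with their proteins) modify that precursor, large complexes cut and fold it, and the immature small and large subunits leave for the cytoplasm separately. The transcription factor Myc pairs with Max, binds E-box sequences and raises many genes of this machinery, and in the intestinal crypt Myc is a classical Wnt target. Growing and dividing cells need much of this machinery, and stem and progenitor cells of the crypt are rich in it.

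The 6 libraries held 45682340 to 47905087 read pairs assigned to genes and detected 23051 to 23789 genes each. Day 3 stood apart from days 1 and 2 in both groups, along a first principal component with 52.1% of the variance. Between days 1 and 2 the mean chi-square per gene of the counts was 2.4 (DMSO) and 3.2 (INT-777), against 50.1 to 91.5 between either of them and day 3. Day 3 also had the lowest RNA integrity number of each group, 8.7 with DMSO and 9.0 with INT-777, against 9.2 to 9.6 elsewhere. Gpbar1 had 0 to 5 read pairs per library and was not tested. Summed levels of 10 Lgr5 stem cell markers were 2261 to 2728 CPM with DMSO and 1877 to 2362 CPM with INT-777 (CPM, TMM-scaled counts per 1000000). They were lower with INT-777 on each day, with 7 of 10 markers negative in log2 change. In the unpaired fit 1 was lower and 0 higher, against 0.763% and 0.688% of all genes. In the paired one 6 were lower and 2 higher, against 10.3% and 11.1% of all genes. The part of these stem cell marker levels in the members' change was not tested. Summed levels of 8 epithelial markers were 9364 to 9757 CPM with DMSO and 10479 to 10893 CPM with INT-777. In such bulk RNA, a gene's level per cell and the number of cells that carry it cannot be told apart.

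Nearly all members lay slightly higher with INT-777. Log2 changes were positive for 37 of the 39 tested members, with a median of 0.25 (interquartile range 0.21 to 0.27), while 50.7% of all 15998 genes were positive with a median of 0.00. All 37 were higher on each of the 3 days, as were 26.8% of all genes, and Mycn was lower on each day. The median change of the members was 0.22, 0.21 and 0.30 on days 1, 2 and 3. Over all days it was 0.13 without the DMSO library of day 3 and 0.30 without the INT-777 library of day 3. In 16 members every INT-777 value lay above every DMSO value (13.6% of all genes), and in 1, Mycn, below (11.0% of all genes). As a plain sum, the 40 genes held 8861, 8915 and 7107 CPM with DMSO and 10255, 10289 and 8834 CPM with INT-777 on days 1, 2 and 3. The sum was thus higher with INT-777 within each day, but the INT-777 library of day 3 lay below the DMSO libraries of days 1 and 2.

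How many members passed the test depended on whether libraries of the same day were paired. Without the pairing, none of the 39 passed in either direction (edgeR quasi-likelihood test, Benjamini-Hochberg adjusted p under 0.05), against 0.688% of all genes higher and 0.763% lower. The lowest adjusted p was that of Wdr12 (edgeR adjusted p = 0.0636). An unadjusted p under 0.05 was reached by 16 members that were higher and by 1, Mycn, that was lower, against 8.96% and 7.42% of all genes. With the day as a block, 37 members rose and Mycn fell, against 11.1% of all genes higher and 10.3% lower, and the one tested member that did neither was Polr1c. Unpaired limma-voom called 0 members (16 higher and 1 lower at an unadjusted p under 0.05), against 0.613% of all genes higher and 0.725% lower. Unpaired DESeq2 called 5 higher and 0 lower (2.31% of all genes higher), namely Utp4, Nob1, Wdr12, Nip7 and Mrto4. Paired DESeq2 called 33 higher and 0 lower, against 6.95% and 7.26% of all genes. The members that the paired edgeR fit called and paired DESeq2 did not were Mycn, Max, Polr1a, Fbl and Gar1. Without both libraries of day 3 the unpaired fit called 36 members higher and 1 lower, against 13.9% and 12.9% of all genes. Without day 1 or day 2 it called none (edgeR, 7 and 5 higher, 0 and 1 lower at an unadjusted p under 0.05), with 0% of all genes called without day 1 and 0.0123% higher and 0.00616% lower without day 2. In the paired fit, leaving out day 1, 2 or 3 gave 36, 31 and 35 members higher, against 10.4%, 4.79% and 12.1% of all genes. Mycn was lower in that fit without day 2 or 3 and not called without day 1, against 7.17%, 12.0% and 9.58% of all genes lower. Days 1 and 2 differed little in counts (mean chi-square per gene 2.4 with DMSO and 3.2 with INT-777). How far the calls of the paired fits, and of the unpaired fit without day 3, rest on that closeness was not tested.

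**Figure D1:**
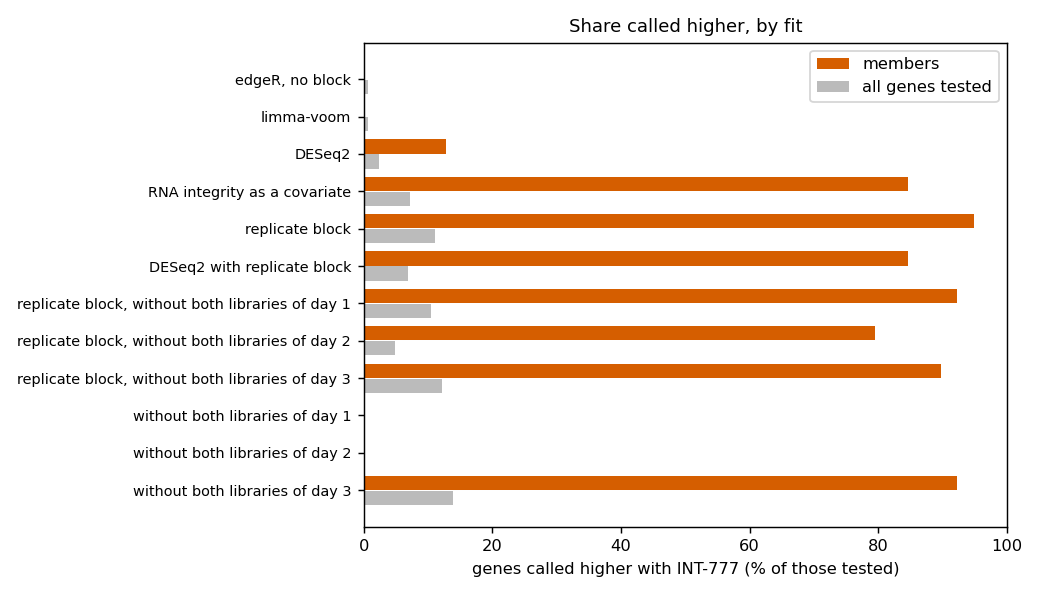
Share of genes called higher with INT-777 (%, horizontal axis) among the 39 tested members (orange) and among all genes tested (grey), for 12 fits (vertical axis). The members reach 94.9% with the day block and 0% in the fit without it, where all genes are at 0.688%.

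**Figure D2:**
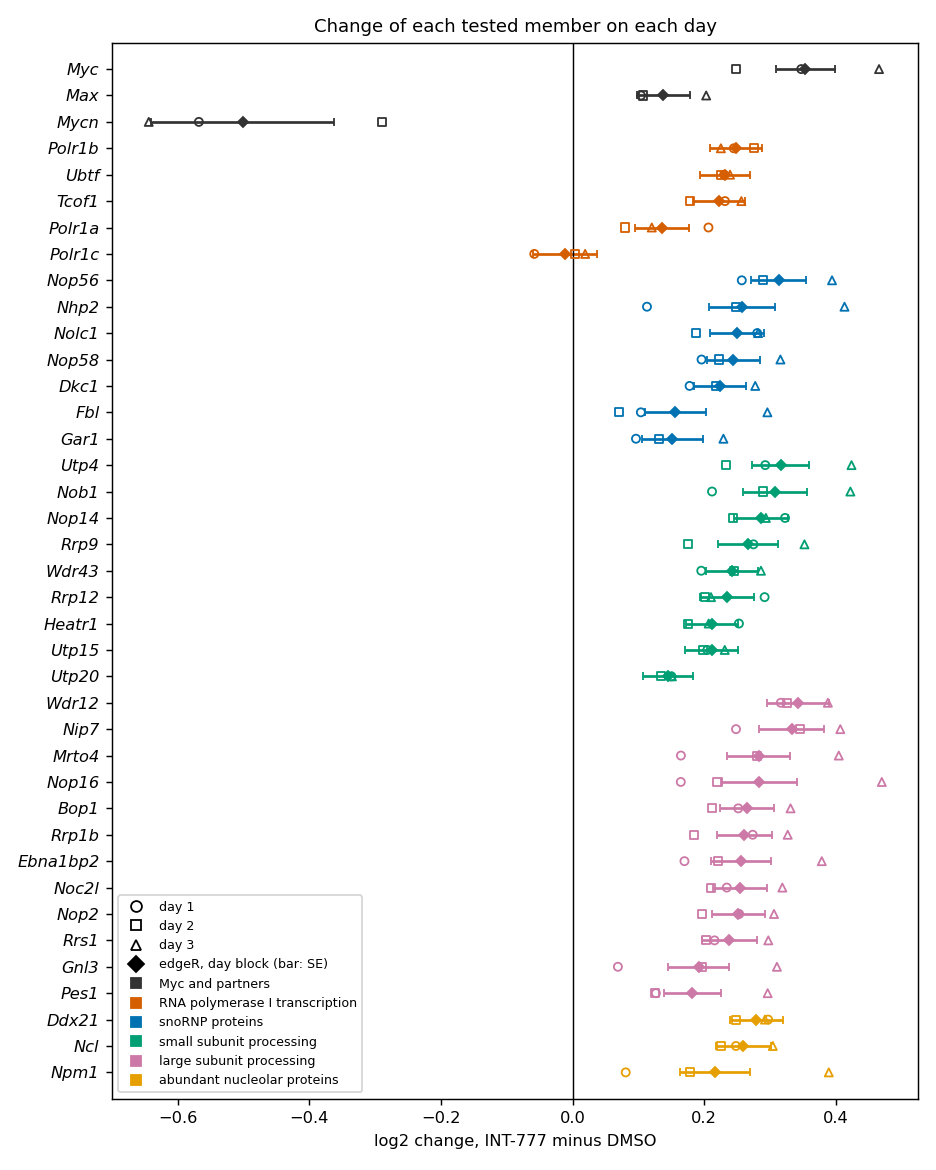
Log2 change, INT-777 minus DMSO (horizontal axis), of the 39 tested members (vertical axis, coloured by role) on day 1 (circles), day 2 (squares) and day 3 (triangles), with the edgeR estimate of the paired fit (diamonds) and its standard error (bars). Apart from Mycn and Polr1c, every point lies to the right of 0.

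Myc lay at the upper end of the members' changes, beside Wdr12 and Nip7 and within its standard error of both, and Mycn at the lower end. Myc itself (chromosome 15, 61985391 to 61990374, GRCm38) stood at 266, 279.9 and 205 CPM with DMSO and 339, 333 and 283 CPM with INT-777 on days 1, 2 and 3. All 3 INT-777 values lay above all 3 DMSO values, by a narrow margin between the INT-777 library of day 3 and the DMSO library of day 2. Its mean went from 250.4 ± 40.1 to 318 ± 30.8 CPM (SD, n = 3), a log2 change of 0.35 ± 0.13 (SE), which passed with the day block (0.35 ± 0.04, edgeR adjusted p = 5.66e-05) and not without it (edgeR adjusted p = 0.252). Max, the partner that Myc needs to bind DNA (chromosome 12, 76937269 to 76962201), stood at 138, 143 and 122 CPM with DMSO and 148, 154 and 140.1 CPM with INT-777 on days 1, 2 and 3. Its groups overlapped, and its log2 change of 0.14 ± 0.04 passed with the block (edgeR adjusted p = 0.0248, against 0.387 in the unpaired fit of all 6 libraries).

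Mycn, the paralog that is best known from embryonic and neural tissue (chromosome 12, 12936093 to 12941914), went the other way from a far lower level. It had 3.30, 2.95 and 3.58 CPM with DMSO and 2.22, 2.41 and 2.29 CPM with INT-777 on days 1, 2 and 3, so that every INT-777 value was below every DMSO value. These rest on 105 to 166 read pairs per library. The log2 change was −0.50 ± 0.14 without the block (edgeR adjusted p = 0.139) and −0.50 ± 0.14 with it (edgeR adjusted p = 0.0178). Per kilobase of exon, Myc was at 92.1 ± 14.8 and Mycn at 0.994 ± 0.0953 (DMSO mean and SD, CPM per kilobase).

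**Figure D3:**
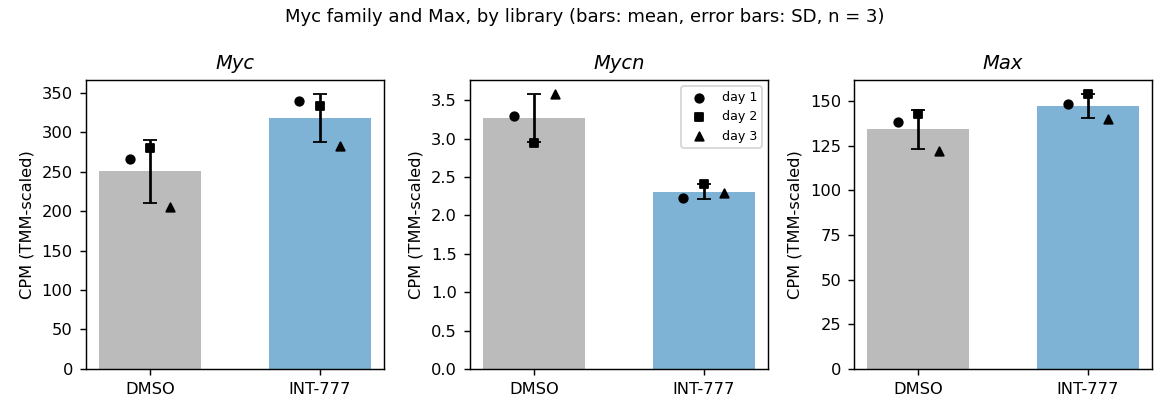
Levels of Myc, Mycn and Max in CPM (vertical axes, from 0) in the DMSO and INT-777 groups, with bars for the mean, error bars for the SD (n = 3) and 1 symbol per day. Mycn is lower in all 3 INT-777 libraries, at 2.22 to 2.41 CPM against 2.95 to 3.58 CPM, and Myc higher.

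Because Myc and Max bind E-boxes, the promoters of the members were searched for the E-box letters. RefSeq windows (GRCm38.p6) from 250 bases before to 50 bases after the start were at hand for 33 of the 40 genes. Of these, 1 window per gene was used, the one furthest upstream in RefSeq. Bases just after the start were found in a GENCODE transcript of the gene for 26 of the 33. The RefSeq starts of Wdr43 and Heatr1 lay downstream of their GENCODE gene starts (71615895 and 12395027), and distances here count from the RefSeq start. The E-box CACGTG, which reads the same on both strands, occurred in 6 of the 33 (18.2%) and in 7.91% of 17492 protein-coding genes. The 6 sites are shown, 30 bases each, 5′ to 3′ on the gene's strand, with the E-box in capitals.
Max, chr12:76962234-76962263, minus strand: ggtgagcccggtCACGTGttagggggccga
Nop2, chr6:125131811-125131840, plus strand: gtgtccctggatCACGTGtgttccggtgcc
Pes1, chr11:3963965-3963994, plus strand: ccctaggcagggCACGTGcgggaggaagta
Utp20, chr10:88826765-88826794, minus strand: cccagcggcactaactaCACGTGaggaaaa
Utp4, chr8:106893643-106893672, plus strand: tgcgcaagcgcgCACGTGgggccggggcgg
Wdr43, chr17:71616220-71616249, plus strand: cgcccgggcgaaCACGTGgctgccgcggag
The first base of the E-box lay 3 and 60 bases before the start in Max and Nop2, and at bases 3, 16, 18 and 38 after it in Pes1, Utp4, Wdr43 and Utp20. Log2 changes of these 6 genes ran from 0.14 (Max and Utp20) to 0.31 (Utp4), inside the span of the other members. The variant CACGCG, on either strand, occurred in 10 of the 33 windows (30.3%, and 12.2% of all), with Pes1 in both sets.

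The ETS-type letters CCGGAAGT, searched on both strands like all motifs here, were found in 9 windows (27.3%, and 5.28% of all genes). These 4 are shown because they span the members' behaviour, from Nip7, with one of the higher log2 changes, to Polr1c, which was called in neither direction. The motif is in capitals.
Heatr1, chr13:12395348-12395377, plus strand: gtagtgagaagCCGGAAGTtcctatgaggc
Nip7, chr8:107056763-107056792, plus strand: gctttcggtccCCGGAAGTccgccacggta
Noc2l, chr4:156236002-156236031, plus strand: gcattctgggcCCGGAAGTgcggcgcacgc
Polr1c, chr17:46248069-46248098, minus strand: ccacttgacgtCCGGAAGTgaaggacgtgg
Utp4 held both CACGTG and CCGGAAGT, and Nip7, Noc2l, Nhp2 and Polr1c held both CACGCG and CCGGAAGT. CCAAT was in 10 windows (30.3%, and 39.2% of all). A YY1 motif and the long CpG palindrome of some promoters were in 0, against 0.972% and 0.726% of all genes. The motifs were chosen with the values known, and a match describes letters alone.

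RNA polymerase I and its helpers open the pathway. The subunit Polr1b and the factor Ubtf, which shapes the ribosomal DNA for transcription, had the smallest p of this group without the block. Ubtf stood at 179, 179.6 and 157 CPM with DMSO and 210.5, 210.0 and 185 CPM with INT-777 on days 1, 2 and 3, with no overlap between groups (log2 0.23 ± 0.08, edgeR adjusted p = 0.205, and 0.000584 with the block). Polr1b stood at 129.9, 123 and 109 CPM with DMSO and 154, 149 and 127 CPM with INT-777 on days 1, 2 and 3. There the INT-777 library of day 3 lay among the DMSO values, and the gene passed with the block (log2 0.25 ± 0.04, edgeR adjusted p = 0.000396, against 0.24 in the unpaired fit of all 6 libraries). Polr1a, the largest catalytic subunit, and Tcof1, the Treacher Collins protein treacle that aids Pol I transcription, also rose in the paired fit, by 0.14 ± 0.04 and 0.22 ± 0.04 on the log2 scale.

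Polr1c was called in neither direction. This subunit, which RNA polymerase III shares, had 50.6, 49.5 and 48.4 CPM with DMSO and 48.6, 49.6 and 49.0 CPM with INT-777 on days 1, 2 and 3, and its log2 change was −0.01 ± 0.05 (edgeR adjusted p = 0.925, and 0.895 with the block). It was not called between days either (edgeR adjusted p = 0.948). Among the 11 other Pol I factors, which include Rrn3 and the TAF1 subunits of the selectivity factor, 10 were positive in log2 change (median 0.15). None passed without the block (0.688% of all genes higher), and 6 rose with it (11.1% of all genes higher). Polr1e (log2 0.26 ± 0.08), Znrd1 (0.21 ± 0.07) and Polr1d (0.14 ± 0.06), all Pol I subunits, had the smallest p, and the first 2 of these passed with the block (edgeR adjusted p = 0.0014 and 0.0375, against 0.068 for Polr1d).

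The snoRNP proteins all lay higher. Nop56, a core protein of the box C/D particles that guide methylation, stood at 338, 332 and 268 CPM with DMSO and 404, 406 and 353 CPM with INT-777 on days 1, 2 and 3. The groups did not overlap, and its log2 change was 0.31 ± 0.10 (edgeR adjusted p = 0.202, and 8.59e-05 with the block). Nhp2, a core protein of the box H/ACA particles that guide pseudouridylation, stood at 149.9, 147 and 126 CPM with DMSO and 162, 174 and 168 CPM with INT-777 on days 1, 2 and 3. Here, too, the groups were separate (log2 0.25 ± 0.07, edgeR adjusted p = 0.162, and 0.00211 with the block), and the change was smallest on day 1 (0.11) and largest on day 3 (0.41). The other 5, all higher in the paired fit, were the box C/D proteins Nop58 (0.24 ± 0.04) and Fbl, the methyltransferase (0.16 ± 0.05), the box H/ACA proteins Dkc1, the pseudouridine synthase (0.22 ± 0.04), and Gar1 (0.15 ± 0.05), and the snoRNP chaperone Nolc1 (0.25 ± 0.04, all log2). All 13 further snoRNP and modification factors tested were positive in log2 change (50.7% of all genes), with a median of 0.20. Of these 13, 9 rose with the block, against 11.1% of all genes. The rRNA methyltransferases Dimt1 (log2 0.35 ± 0.09) and Emg1 (0.20 ± 0.06) and the box C/D protein Snu13 (0.24 ± 0.07) had the smallest p (edgeR adjusted p = 0.00144, 0.00482 and 0.00296 with the block).

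Of the members, 9 make the small subunit, and all 9 rose in the paired fit, against 11.1% of all genes. Utp4, a subunit of the complex that joins the precursor as it is transcribed (chromosome 8, 106893636 to 106923088), stood at 149, 153 and 124 CPM with DMSO and 183, 180.1 and 166 CPM with INT-777 on days 1, 2 and 3. Every INT-777 value exceeded every DMSO value, and the estimate was 0.31 ± 0.09 on the log2 scale (edgeR adjusted p = 0.147, and 0.000124 with the block). Nob1, the endonuclease of the last small subunit cut (chromosome 8, 107412486 to 107425051), stood at 70.8, 67.9 and 58.0 CPM with DMSO and 82.0, 83.0 and 77.7 CPM with INT-777 on days 1, 2 and 3. It too had separate groups (log2 0.30 ± 0.08, edgeR adjusted p = 0.129, and 0.000393 with the block). The lowest of the 9 was Utp20 (0.15 ± 0.04 with the block), and between lay Nop14 (0.29 ± 0.04), the U3 snoRNP protein Rrp9 (0.27 ± 0.05), Wdr43 (0.24 ± 0.04), the export factor Rrp12 (0.23 ± 0.04), Heatr1 (0.21 ± 0.04) and Utp15 (0.21 ± 0.04), on the log2 scale.

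Other small subunit factors lay higher as well. All 41 of these genes were positive in log2 change (50.7% of all genes), the median being 0.19. With the block 30 rose, against 11.1% of all genes. Tbl3, a WD-repeat protein of the processome, was the single gene of the pathway lists that rose without the block (edgeR, 76 higher and 2 lower of 166 at an unadjusted p under 0.05). It stood at 114, 114 and 106 CPM with DMSO and 136, 134 and 132 CPM with INT-777 on days 1, 2 and 3, and the estimate was 0.27 ± 0.05 on the log2 scale (edgeR adjusted p = 0.0482). The groups did not overlap, but the call was lost with RLE scaling factors, with library totals alone, with limma-voom and when any 1 library was left out. Ddx49, an RNA helicase, stood at 60.0, 57.5 and 59.1 CPM with DMSO and 67.9, 66.3 and 67.1 CPM with INT-777 on days 1, 2 and 3, also with separate groups (log2 0.19 ± 0.05, edgeR adjusted p = 0.113, and 0.00718 with the block). Imp3, a U3 snoRNP protein, differed by 0.24 ± 0.07 on the log2 scale (edgeR adjusted p = 0.0029 with the block).

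The 12 tested large subunit factors all rose in the paired fit (11.1% of all genes), with a median of 0.26 there. Wdr12, a partner of Pes1 and Bop1 in the PeBoW complex (chromosome 1, 60069785 to 60098645), stood at 49.5, 50.5 and 44.2 CPM with DMSO and 61.7, 63.2 and 57.9 CPM with INT-777 on days 1, 2 and 3. Its groups were well apart, and its log2 change of 0.34 ± 0.07 came closest of all members to passing without the block (edgeR adjusted p = 0.0636, and 0.000113 with it). Wdr12 was also called without the block by DESeq2. It and Nip7 were also called when only genes without read pairs were left out (0.64% of all genes higher and 0.857% lower). Nip7, which acts in late large subunit assembly (chromosome 8, 107056877 to 107060931), stood at 49.7, 49.5 and 41.8 CPM with DMSO and 59.0, 62.9 and 55.4 CPM with INT-777 on days 1, 2 and 3. No values overlapped (log2 0.33 ± 0.08, edgeR adjusted p = 0.121, and 0.00022 with the block), and it too was called by unpaired DESeq2.

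Bop1 and Pes1, the complex partners of Wdr12, rose with the block as well. Bop1 had a log2 change of 0.27 ± 0.04 and Pes1 of 0.18 ± 0.04 in the paired fit, against 0.34 ± 0.05 for Wdr12, and the difference between them was not tested. The remaining large subunit members ranged in the same fit from 0.19 ± 0.05 for Gnl3, the stem cell GTPase nucleostemin, to 0.28 ± 0.06 for Nop16, with Mrto4 (0.28 ± 0.05), Rrp1b (0.26 ± 0.04), Ebna1bp2 (0.26 ± 0.05), Noc2l (0.25 ± 0.04), the rRNA methyltransferase Nop2 (0.25 ± 0.04) and Rrs1 (0.24 ± 0.04) between. Over a stretch of 20.9% of its exon length Noc2l overlaps Samd11 on the other strand, but Samd11 had 133 read pairs over all 6 libraries. Of 45 other large subunit factors, 44 had positive log2 changes (median 0.18) and 31 rose with the block, led in p by Ppan (log2 0.21 ± 0.06), the export adaptor Nmd3 (0.23 ± 0.07) and the helicase Ddx18 (0.29 ± 0.09). The exosome, which trims and destroys rRNA precursors, gave 13 positive values of 13 (median 0.17) and 8 rises with the block, with Exosc5 (log2 0.24 ± 0.05), Exosc4 (0.23 ± 0.06) and Exosc2 (0.24 ± 0.08) first. Among all genes, 50.7% were positive and 11.1% rose with the block.

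Ncl, Npm1 and Ddx21 are the abundant proteins of the nucleolus. Ddx21, an RNA helicase that links Pol I with snoRNP function, stood at 444, 448 and 353 CPM with DMSO and 546, 532 and 433 CPM with INT-777 on days 1, 2 and 3. The INT-777 library of day 3 lay below 2 DMSO libraries, and the log2 change of 0.28 ± 0.04 passed with the block (edgeR adjusted p = 0.000147, against 0.316 without). Npm1, the chaperone nucleophosmin, stood at 1159, 1147 and 921 CPM with DMSO and 1226, 1298 and 1207 CPM with INT-777 on days 1, 2 and 3, with separate groups. Its log2 change was 0.22 ± 0.05 with the block (edgeR adjusted p = 0.00916), and it was much smaller on day 1 (0.08) than on day 3 (0.39). Ncl, nucleolin, was the most abundant member by counts, at 1635, 1655 and 1242 CPM with DMSO and 1942, 1936 and 1533 CPM with INT-777 on days 1, 2 and 3. Its groups overlapped through day 3, and its log2 change with the block was 0.26 ± 0.04 (edgeR adjusted p = 0.000485, against 0.407 without). Per kilobase of exon Npm1 came first, at 404 ± 50.2, followed by Ncl (148 ± 22.9), Nhp2 (123 ± 11.4), Noc2l (95.8 ± 14.0) and Myc (92.1 ± 14.8), as DMSO means with SD. The neighbours Noc2l and Myc in that order differed by less than their spread. Read pairs that fit several copies of a gene equally well were not counted, so Npm1, which has processed pseudogenes, is uncertain in level.

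The members also differed between days. With treatment and day in the model, 30 of the 39 differed between days (edgeR adjusted p under 0.05), against 20.5% of all genes. All 30 were also lower on day 3 in both groups. Of all genes, 8.61% both differed between days in that test and were lower on day 3 in both groups. Relative to the mean of days 1 and 2, the median member was at −0.30 on day 3 with DMSO and −0.20 with INT-777 (log2), and all genes at 0.01 in both. Among the larger drops were those of Myc (−0.42 with DMSO), Ncl (−0.41) and Noc2l (−0.38). The 9 members that did not pass were Mycn, Polr1c, Fbl, Nhp2, Nob1, Wdr12, Nop16, Mrto4 and Npm1. Without day 3 no gene at all was called between days (edgeR, 0% of 16002), and at an unadjusted p under 0.05 there were 0 of the 39 members and 462 of all genes. The likelihood ratio test of DESeq2 called 29 members between days, against 15.3% of all genes. The change with INT-777 was larger on day 3 than on either other day in 32 of the 39 and in 37.3% of all genes, a difference that was not tested.

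**Figure D4:**
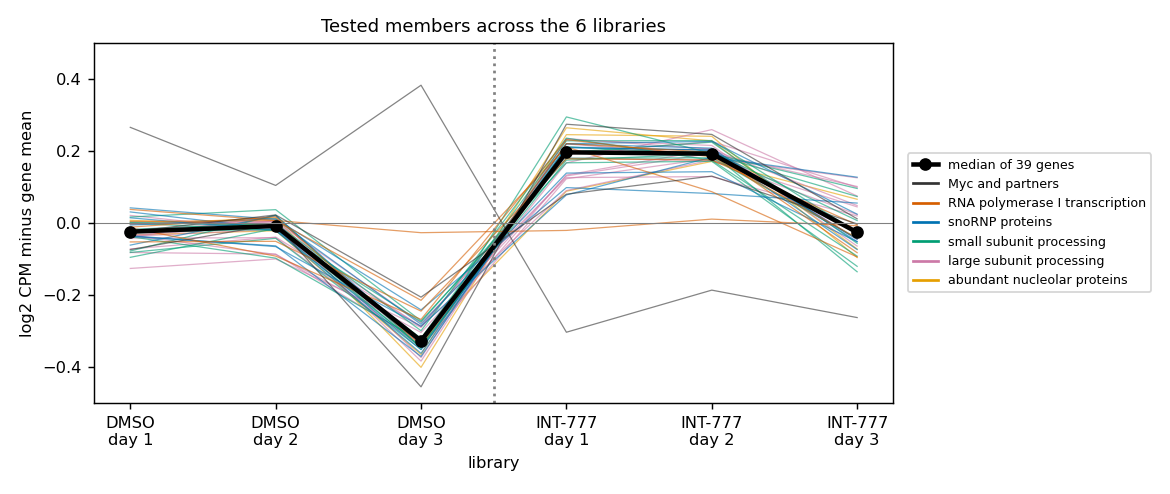
Log2 CPM of each of the 39 tested members minus its mean over the 6 libraries (vertical axis), by library (horizontal axis), with 1 thin line per gene coloured by role and the median in black. The median is −0.33 in the DMSO library of day 3 and between −0.03 and 0.20 in the others, and the line that runs against the rest is Mycn.

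Markers of other cell types and the rRNA ratio are set beside these changes. All 12 goblet cell markers had negative log2 changes. Without the block none of them passed (0.763% of all genes lower), and with it 11 fell (10.3% of all genes lower). Their summed level was 5807, 5716 and 28686 CPM with DMSO and 3118, 3016 and 12731 CPM with INT-777 on days 1, 2 and 3, so that it was highest where the members were lowest. Enterocyte markers, 10 in the list and 9 tested, summed to 818 to 1153 CPM with DMSO and 525 to 631 CPM with INT-777. Of these, 1 was lower without the block, and 4 fell and 2 rose with it (11.1% of all genes higher). Of 10 Paneth markers 1 was lower without the block and 6 fell with it (3476 to 4011 and 2277 to 3654 CPM). Enteroendocrine markers summed to 659.5, 671 and 2856 CPM with DMSO and 616, 633 and 2246 CPM with INT-777 on days 1, 2 and 3. Of these 10 markers 5 were lower in the paired fit and 0 in the unpaired one. Tuft markers summed to 26.2 to 36.2 and 30.4 to 42.3 CPM, with Il25 at 0 in every library. The 18 immune markers summed to 3.91 to 9.95 and 4.13 to 9.79 CPM, and the 12 of stroma and endothelium to 7.64 to 33.3 and 10.3 to 42.1 CPM. Like the goblet sum, the enteroendocrine, tuft, immune and stromal sums were highest on day 3 in both groups. The enterocyte and Paneth sums were lowest on day 3 in both groups. The ratio of mature 28S to 18S rRNA, which the labels give for each RNA sample, was 1.7, 1.8 and 1.2 with DMSO and 1.6, 1.6 and 1.3 with INT-777 on days 1, 2 and 3. The part of the marker levels, and of RNA integrity, in the members' change was not tested. With the RNA integrity number as a covariate in place of the block, 33 members were higher and 1 lower, against 7.21% and 5.52% of all genes. That number was lowest on day 3 in both groups, so RNA integrity and day 3 cannot be told apart here.

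Regulators around Myc were of mixed sign. Of 13 genes, none passed without the block (edgeR, 1 higher and 1 lower at an unadjusted p under 0.05), 6 were positive and the median log2 change was −0.04. With the block 2 of the 13 rose, Mxd1 and Fbxw7, against 11.1% of all genes. In the same fit 3 fell, Mycl, Mxd4 and Mlxipl, against 10.3% of all genes. Mxd1, which competes with Myc for Max, had 27.1, 23.5 and 44.3 CPM with DMSO and 39.6, 39.9 and 53.6 CPM with INT-777 on days 1, 2 and 3 (log2 0.52 ± 0.08, edgeR adjusted p = 0.00066), and Mxd4, of the same family, 10.5, 9.98 and 30.6 CPM with DMSO and 6.55, 6.67 and 13.9 CPM with INT-777 on days 1, 2 and 3 (log2 −0.83 ± 0.10, edgeR adjusted p = 5.82e-05). Both were named after their values were seen. Both were highest on day 3, in each group. Fbxw7, the ubiquitin ligase subunit that marks Myc for breakdown, changed by 0.20 ± 0.05 and Mlxipl, the glucose-responsive factor ChREBP, by −0.20 ± 0.04. Mlx, the partner of Mlxipl, had a log2 change of 0.10 ± 0.05 and was not called. Mnt (log2 0.00 ± 0.05) and Mxi1 (−0.05 ± 0.05) were not called.

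Growth genes known as Myc targets outside the ribosome were mostly higher as well. Of 30 genes 28 were higher in estimate (median log2 0.20), none passed without the block (edgeR, 16 higher and 1 lower at an unadjusted p under 0.05), and 23 rose and 1, the telomerase gene Tert, fell with it. Ccnd2, cyclin D2, stood at 594, 592 and 679.6 CPM with DMSO and 800.1, 762 and 758 CPM with INT-777 on days 1, 2 and 3, with separate groups (log2 0.32 ± 0.07, edgeR adjusted p = 0.0941, and 0.000399 with the block). Eif5a, a translation factor, and Ahcy, of the methyl cycle, had log2 changes of 0.23 ± 0.06 and 0.19 ± 0.05. Over all 7 pathway lists together, 166 genes were tested, 155 were positive, and the median log2 change was 0.18, or 0.11 without the DMSO library of day 3. With the block 109 rose and 4 fell (edgeR), against the 11.1% and 10.3% of all genes given above.

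**Figure D5:**
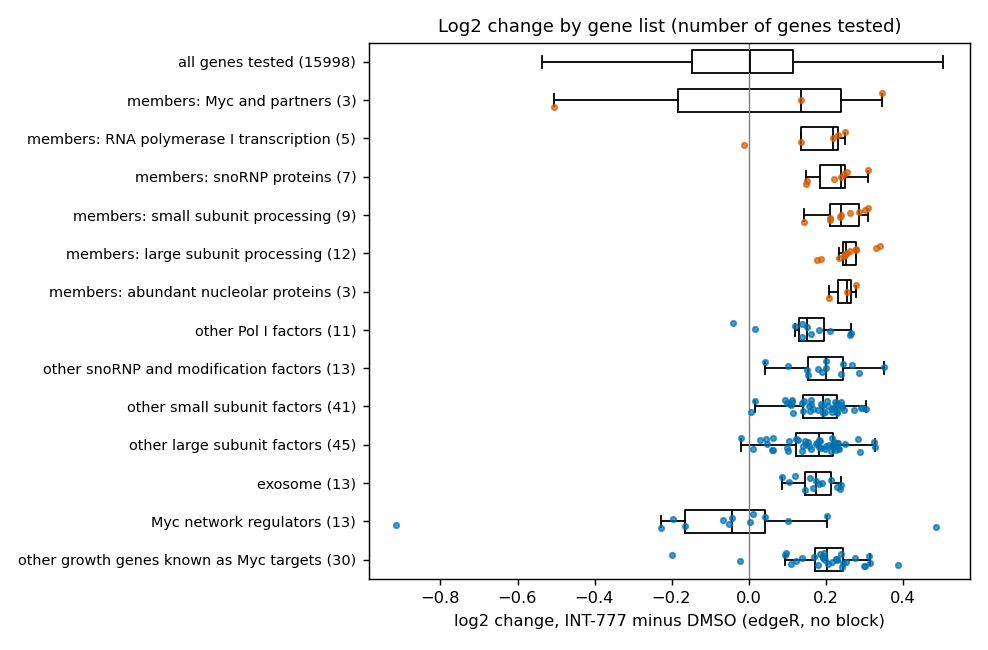
Log2 change, INT-777 minus DMSO, without the block (horizontal axis) for all genes tested, the members by role (orange points) and the 7 pathway lists (blue points), with boxes for the quartiles and whiskers to 1.5 times the box. The boxes of the ribosome lists lie to the right of 0 (medians 0.15 to 0.26). Those of Myc with its partners and of the Myc network regulators straddle 0.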

How the data were processed

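RNA of 6 libraries, 3 per group, was read as 100-base pairs on a BGISEQ-500, per the labels' protocols. The authors deposited gene counts in the layout that STAR writes per gene, and the submitters' processing notes name FastQC, STAR 2.73a, edgeR 3.24.3 and the builds GRCm38 and mm10. The deposited counts that ignore strand were used. Per library 74.5 to 75.6% of read pairs were assigned to a gene. The summary lines (unmapped 10.3 to 11.3%, multimapping 5.96 to 6.31%, no feature 3.32 to 3.83%, ambiguous 4.35 to 4.54%) were left out. Gene IDs were matched to GENCODE M21 (54809 of 54838).

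The main test was edgeR's quasi-likelihood test (edgeR 4.0.16, R 4.3.3) with TMM factors, filterByExpr by group, treatment alone, and Benjamini-Hochberg adjustment over the 15998 genes tested, two-sided, at 0.05. The replicate number is a day in the labels. The fit with the day as a block follows those labels and is printed beside the main one. Same-day libraries deviated together from their group means (correlations 0.329, 0.369 and 0.632). Such deviations sum to 0 within a group, so 1 outlying day shapes all of these correlations. Each DMSO library of days 1 and 2 also correlated with the INT-777 library of the other of those days (0.363 and 0.336), and day 3 with the others at −0.435 to −0.487. The correlations thus set day 3 apart, but they do not tell day 1 from day 2. Differences between days were tested by an F-test in a model of treatment and day. Alternatives were DESeq2 1.42.0, limma-voom (limma 3.58.1), other scaling and filters, the RNA integrity number as a covariate, and leaving out libraries or days. The tests were checked on simulated data. In the data simulated with a treatment effect the days did not differ, so that check does not bear on pairing by day. CPM values are TMM-scaled counts per 1000000.

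The members and lists were chosen with earlier results of these data known. Values per library are given for Myc, Mycn, Max and, in each role group, the 2 members of smallest p without the block and the 1 of smallest p with it. In each pathway list the 3 genes of smallest p are named. Polr1c, Ncl, Mxd1, Mxd4, Mnt and Mxi1 were chosen after their values were seen.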

Additional observations from a re-analysis of the deposited data

How the results depend on the processing

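Counts of calls moved with the day block, with RNA integrity as a covariate and with the days included. Genes called higher and lower among all genes were 110 and 122 in the main analysis, 1770 and 1645 with the replicate block, 369 and 429 with DESeq2, 1112 and 1162 with DESeq2 and the block, 1153 and 883 with RNA integrity as a covariate, and 186 and 249 without a low-count filter. Leaving out both libraries of day 1, 2 or 3 gave 0, 2 and 2225 higher and 0, 1 and 2067 lower (614 and 575 at an unadjusted p under 0.05 without day 1), and with the block 1691, 777 and 1938 higher and 1556, 1163 and 1915 lower. Leaving out 1 library gave 2 to 105 higher and 6 to 168 lower. Members higher and lower were 0 and 0 (edgeR, 16 and 1 at an unadjusted p under 0.05), 37 and 1 with the block, 5 and 0 with DESeq2, 33 and 0 with DESeq2 and the block, 33 and 1 with RNA integrity, and 2 and 0 without a filter. Without day 3 they were 36 and 1, and in the block without day 1, 2 or 3 they were 36 and 0, 31 and 1, and 35 and 1. Pathway genes higher and lower were 1 and 0, 109 and 4 with the block, 6 and 1 with DESeq2, 92 and 3 with DESeq2 and the block, 92 and 1 with RNA integrity, and 0 and 0 with RLE factors, library totals, limma-voom or without day 1 or 2. They were 114 and 4 without day 3, and 108 and 3, 62 and 2, and 111 and 4 in the block without day 1, 2 or 3. Leaving out 1 library gave 0 to 1 higher. The cause of these differences was not tested.

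The median change of the members was 0.21 to 0.28 under the other settings and 0.13 (without DMSO replicate 3) to 0.30 (without INT-777 replicate 3) when 1 library was left out. That of the pathway lists was 0.11 to 0.22 when 1 was left out. Members called between days numbered 20 to 37 when 1 library was left out, with 2010 to 4867 of all genes called, and 0 without day 3, where 0 of all genes were called. Polr1c alone changed sign, with log2 changes from −0.039 to 0.00094 when 1 library was left out and 0.013 without day 1, with or without the block. Each library held 45682340 read pairs or more, and the members with the fewest were Wdr74, which was not tested, and Mycn.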
